A study of Mus musculus with 24 samples.

Results

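The 37 genes described here encode proteins that copy DNA in S phase. They were chosen by name as the MCM helicase and its loaders, the GINS complex, the sliding clamp and its loader, the replicative polymerases and primase, enzymes of nucleotide supply, end-processing and single-strand binding proteins, and chromatin factors of the fork. The rule uses gene names and no measured value, but it was set with earlier results of these data known. All 37 were found among the 39310 genes of the siRNA table and the 38937 genes of the shRNA table, and all 37 passed the filter on low counts in both tables. The cells were lung adenocarcinoma cells of the mouse, sorted from lung tumours as GFP-positive and CD45-negative cells and cultured. A/A cells carry alanine in place of the serine of eIF2α that is phosphorylated in the integrated stress response, and S/S cells carry the normal serine. The 6 groups, of 4 libraries each, were A/A siChchd10, A/A siControl, S/S siChchd10 and S/S siControl in the siRNA table (16 libraries), and S/S shAtf4 and S/S shControl in the shRNA table (8 libraries). siChchd10 is an siRNA against Chchd10, which encodes a protein of the mitochondrial intermembrane space, and shAtf4 is an shRNA against Atf4, the transcription factor made when eIF2α is phosphorylated. The labels name neither the driver alleles of the tumours nor the number of tumours, clones or cultures behind a group, and each knockdown is described with a single reagent. The alleles are taken from the sample titles, since the genotype field of the labels gives only the knockdown. A difference between A/A and S/S cells therefore cannot be told apart from a difference between their cultures or tumours.

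A replication origin is prepared in G1, when the origin recognition complex, CDC6 and CDT1 load the ring of MCM2 to MCM7 onto DNA. In S phase CDC45 and GINS join this ring to form the moving helicase, primase and polymerase alpha start each strand, and polymerases delta and epsilon extend it with the clamp PCNA, which the RFC complex loads. Transcription of many of these genes is known to be driven by E2F factors at the passage from G1 to S, and they are widely used as markers of proliferating tumour cells. Bulk RNA cannot tell a larger share of cells in S phase from more RNA per cell in S phase.

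The targeted genes followed the labels. Chchd10 was measured at 1.37, 1.75, 2.04 and 2.15 CPM (counts per 1e+06 counts, TMM-scaled) in A/A siChchd10 libraries, against 10.2, 9.53, 7.97 and 7.99 in A/A siControl libraries (log2 fold change -2.27). In S/S cells it was at 6.69, 5.34, 6.33 and 6.82 CPM with siChchd10, against 40.6, 45.5, 38.1 and 46.0 with siControl (-2.76). Atf4 was at 302, 237, 319 and 225 CPM with shAtf4, against 565, 835, 818 and 498 with shControl (-1.33, adjusted p = 0.0327). Library totals ran from 42863650 to 75409451 counts in the siRNA table and from 14067290 to 70932804 in the shRNA table. Among epithelial markers, 6 of 7 were above 1 CPM in A/A cells and 7 of 7 in S/S cells, Cldn4 being the exception. Of these 7 genes, 2 were higher and 3 lower in A/A cells after siChchd10 (median log2 fold change -0.14), and 6 were higher in S/S cells (0.31). In A/A against S/S cells 6 were lower and 1 higher with siChchd10 (-0.99), and 5 lower and 2 higher with siControl (-0.70). Of all genes, 26.5% were called higher and 27.2% lower in A/A cells after siChchd10, and 15% and 13% in S/S cells. In A/A against S/S cells these shares were 34.7% and 35.8% with siChchd10, and 35.6% and 34.7% with siControl. With shAtf4, 1 of the 7 was higher and 1 lower, the 7 ranging from -0.67 to 1.49, against 0.15% and 0.388% of all genes. Summed leukocyte markers stayed between 2.39 and 5.02 CPM, with Ptprc among the genes listed at 0 in the shRNA table. Summed fibroblast markers lay between 2.23 and 18.4 CPM and endothelial markers between 0.563 and 3.10 CPM. Lung alveolar markers differed between A/A and S/S cells, and with siChchd10 in A/A cells, while their sums overlapped between the S/S siRNA groups. Their sum over 7 genes was 1221 to 1425 CPM in A/A siChchd10 libraries, 385 to 429 in A/A siControl, 38.4 to 48.9 in S/S siChchd10 and 40.6 to 42.1 in S/S siControl, while in the shRNA table it was 1.20 to 2.74 CPM, with Nkx2-1 and Sftpa1 listed at 0 in every library. The part of the epithelial and alveolar markers in the results was not tested. Some libraries stood apart. On the first principal component of the siRNA table (92.9% of the variance), which separates A/A from S/S, A/A siControl replicate 1 lay at 36.6 and the other A/A siControl libraries between 59.2 and 66.9. In the shRNA table the first component (46.9%) separated replicate 4 of both groups from the rest. Results are given with and without these libraries where they move.

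The promoter windows of the members most different between A/A and S/S cells are shown because E2F words were frequent in the windows of this list. RefSeq (GRCm38.p6, the assembly of mm10) gave windows from 250 bases before to 50 after an annotated start for 30 of the 37 members, some of them with several starts. The words searched were TTTCCCGC, TTTCGCGC, TTTGCCGC and TTTGGCGC on either strand. They occurred in windows of 13 of the 30 members (43.3%), against 2.61% of all 27025 genes with a window, and in 37.1% of the 35 member windows, against 2.26% of all 32851 windows. The word CCAAT, the core of the NF-Y site, occurred in windows of 70% of the members with a window, against 41.1% of all genes. Capitals mark the E2F words, which overlap each other at the upstream site of Mcm6. The windows shown are those of the 6 members with such a word and the smallest adjusted p between A/A and S/S siControl cells. They lie at chr1:128359656-128359955 (Mcm6, minus strand), chr17:56304063-56304362 (Uhrf1, plus), chr1:20820263-20820562 (Mcm3, minus), chr7:44548766-44549065 (Pold1, minus), chr8:122567765-122568064 (Cdt1, plus) and chr7:13278576-13278875 (Lig1, plus). Each is written 5′ to 3′ on the strand of its gene. For Uhrf1 the window shown is the second of 2 and for Lig1 the second of 3, each set on a later start than the first, and their other windows hold none of the words.
Mcm6: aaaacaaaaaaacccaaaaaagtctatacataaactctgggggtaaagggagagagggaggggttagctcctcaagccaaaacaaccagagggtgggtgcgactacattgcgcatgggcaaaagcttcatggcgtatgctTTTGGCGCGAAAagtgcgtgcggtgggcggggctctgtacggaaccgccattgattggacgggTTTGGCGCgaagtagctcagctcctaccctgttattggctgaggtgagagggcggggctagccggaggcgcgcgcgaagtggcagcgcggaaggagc
Uhrf1: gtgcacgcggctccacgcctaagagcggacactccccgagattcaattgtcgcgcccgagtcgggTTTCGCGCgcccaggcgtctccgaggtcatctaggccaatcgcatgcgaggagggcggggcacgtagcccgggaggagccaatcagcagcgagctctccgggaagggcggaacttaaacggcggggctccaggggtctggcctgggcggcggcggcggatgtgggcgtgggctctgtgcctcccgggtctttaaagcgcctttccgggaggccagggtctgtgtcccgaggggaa
Mcm3: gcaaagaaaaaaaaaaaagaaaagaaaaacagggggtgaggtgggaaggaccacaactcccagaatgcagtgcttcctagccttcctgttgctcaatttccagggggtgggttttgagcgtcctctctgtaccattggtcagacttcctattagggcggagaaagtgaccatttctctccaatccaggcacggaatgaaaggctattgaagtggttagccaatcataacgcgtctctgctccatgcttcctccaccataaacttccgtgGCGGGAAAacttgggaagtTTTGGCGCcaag
Pold1: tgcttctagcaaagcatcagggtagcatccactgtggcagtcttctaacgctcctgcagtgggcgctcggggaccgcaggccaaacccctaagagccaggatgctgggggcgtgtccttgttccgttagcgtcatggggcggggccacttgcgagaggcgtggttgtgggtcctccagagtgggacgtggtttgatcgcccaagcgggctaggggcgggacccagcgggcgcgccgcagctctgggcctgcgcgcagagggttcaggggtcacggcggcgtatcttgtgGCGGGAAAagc
Cdt1: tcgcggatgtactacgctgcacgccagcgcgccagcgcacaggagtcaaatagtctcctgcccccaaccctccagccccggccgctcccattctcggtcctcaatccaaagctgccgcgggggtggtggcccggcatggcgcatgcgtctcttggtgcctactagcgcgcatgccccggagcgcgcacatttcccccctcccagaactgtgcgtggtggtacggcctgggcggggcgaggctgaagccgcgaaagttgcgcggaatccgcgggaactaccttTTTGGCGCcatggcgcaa
Lig1: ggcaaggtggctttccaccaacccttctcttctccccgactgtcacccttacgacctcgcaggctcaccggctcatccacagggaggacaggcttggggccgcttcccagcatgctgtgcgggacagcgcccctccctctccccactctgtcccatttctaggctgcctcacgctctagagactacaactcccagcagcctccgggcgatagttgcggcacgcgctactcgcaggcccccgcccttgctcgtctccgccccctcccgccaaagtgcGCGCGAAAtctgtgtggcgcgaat
Mcm6 holds words starting 110, 106 and 47 bases before the start its window is set on, Uhrf1 185 bases before it, Mcm3 19 and 38 bases after it, and Pold1, Cdt1 and Lig1 39, 32 and 26 bases after it. A match is a description of the letters and not evidence of binding. Among the 13 members with a word, 9 rose and 2 fell in A/A cells after siChchd10 (median log2 fold change 0.25), and among the 17 members whose windows lack it, 12 rose and 5 did not pass the test (0.22). Mcm6, Uhrf1 and Mcm3 were among those that rose, Pold1 and Cdt1 fell, and Lig1 did not pass. In the same comparison 26.5% of all genes were called higher and 27.2% lower.

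In A/A cells, most replication genes rose by a small amount after siChchd10. Of the 37 members, 26 rose and 3 fell in A/A siChchd10 relative to A/A siControl libraries, with a median log2 fold change of 0.25, while the median over all 18138 genes tested was -0.01. This comparison was broad: 53.7% of all genes were called, 26.5% as higher and 27.2% as lower. A gene is called where its p from edgeR's quasi-likelihood fit, adjusted over every gene tested by the Benjamini-Hochberg method, is under 0.05. All 4 A/A siChchd10 libraries lay above all 4 A/A siControl libraries for 26 members, among them Cdc45 and Rrm2, which did not pass the test. Of all genes 25% were separated in this direction. In a fit to the A/A groups alone, Cdc45 and Rrm2 did pass. Without A/A siControl replicate 1, 26 members rose and 3 fell, with a median of 0.27. The labels do not say whether libraries of a group are separate cultures, so each p measures only the spread between these libraries.

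**Figure D1:**
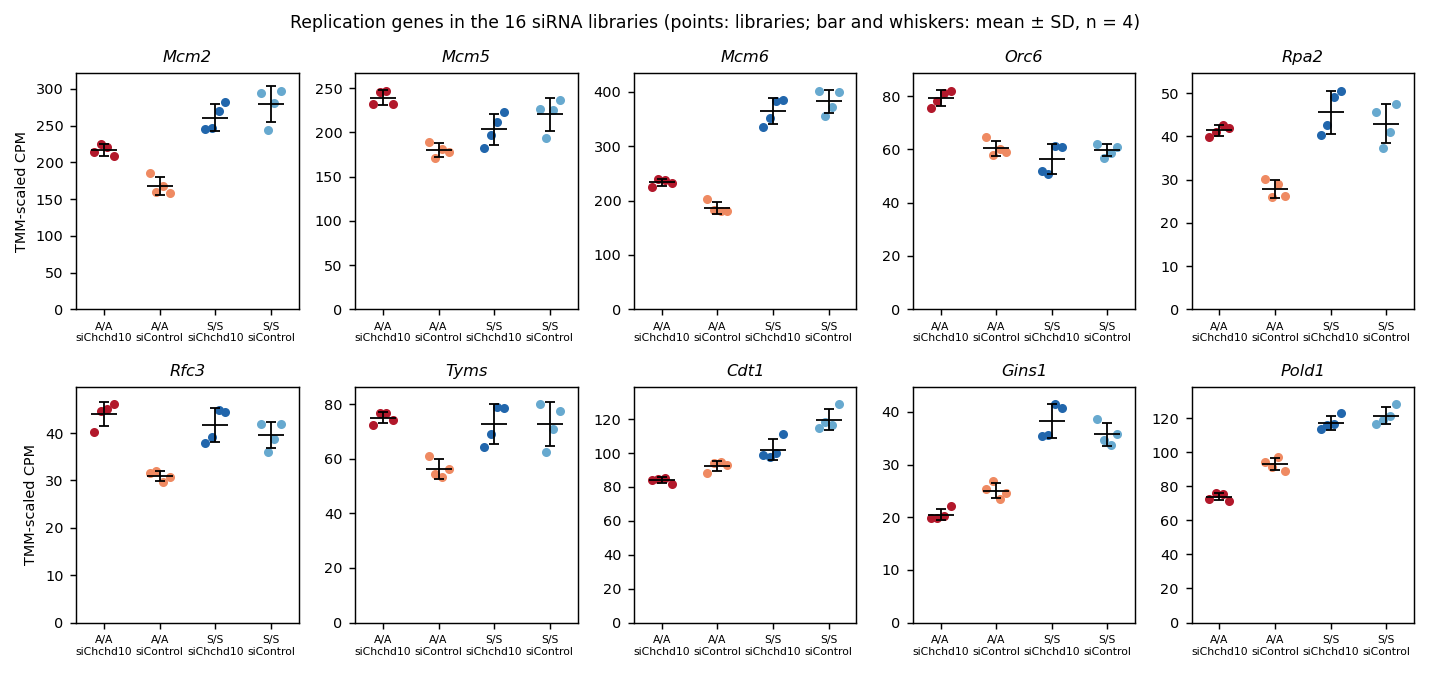
TMM-scaled CPM of 10 replication genes (y axes, from 0) in the 4 siRNA groups, with a point per library and the mean ± SD (n = 4 per group) as a bar with whiskers. In the 7 panels from Mcm2 to Tyms the A/A siChchd10 libraries lie above the A/A siControl libraries, and for Cdt1, Gins1 and Pold1 they lie under them.

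All 6 subunits of the MCM ring rose. Mcm5 was at 232, 246, 247 and 232 CPM in A/A siChchd10 libraries, against 190, 172, 181 and 178 in A/A siControl libraries. The groups did not overlap, and Mcm5 reached 133% of the siControl level (log2 fold change 0.41 ± 0.06 SE, adjusted p = 1.19e-06). Mcm2 was at 213, 225, 221 and 208 CPM with siChchd10, against 185, 160, 167 and 158 with siControl. It too was separated between the groups, with A/A siControl replicate 1 the highest of its group (0.37 ± 0.06, adjusted p = 1.01e-05). Mcm6 averaged 234 ± 6.36 CPM in A/A siChchd10 and 187 ± 10.7 CPM in A/A siControl cells (SD, n = 4 each; 0.33 ± 0.05, adjusted p = 2.42e-06). Mcm4, Mcm3 and Mcm7 rose by 0.28, 0.25 and 0.25 on the log2 scale, again with no overlap between libraries. The exons of Mcm7 overlap Cops6 and Ap4m1 on the other strand, and no source used here states the strand setting of the counting, so reads of these genes may be mixed.

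Among the loaders, Orc1 and Orc6, subunits of the origin recognition complex, and Cdc6 rose, and Cdt1 fell. Orc6 was at 75.6, 78.3, 81.2 and 82.1 CPM in A/A siChchd10 libraries, against 64.6, 57.9, 60.1 and 59.1 in A/A siControl libraries (0.39 ± 0.05, adjusted p = 5.39e-07). Its exons overlap Vps35 on the other strand. Orc1 was low in every library, at 12.6, 12.6, 11.6 and 13.8 CPM with siChchd10 and 9.72, 10.6, 10.9 and 9.28 CPM with siControl, without overlap (0.33 ± 0.08, adjusted p = 0.00143). Cdt1, the partner of CDC6 that is destroyed once S phase begins, was at 84.2, 84.9, 85.5 and 81.7 CPM with siChchd10, against 88.3, 93.9, 94.9 and 92.8 with siControl. The siChchd10 libraries were all lower, by a small margin (-0.14 ± 0.04, adjusted p = 0.00945), and this call was lost in at least 1 fit without a library.

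The helicase partners moved unequally. GINS is a complex of GINS1 to GINS4. Gins4 was at 55.4, 62.6, 61.9 and 60.1 CPM in A/A siChchd10 libraries, against 48.1, 42.5, 46.7 and 43.1 in A/A siControl libraries (0.41 ± 0.06, adjusted p = 5.32e-07). Gins2 rose by 0.34 (adjusted p = 4.91e-05), and its exons overlap Gse1 on the other strand. Gins1, on chromosome 2 at 150909556 to 150931280, went the other way, at 19.9, 19.9, 20.2 and 22.1 CPM with siChchd10, against 25.3, 26.8, 23.5 and 24.6 with siControl. Every siChchd10 library was below every siControl library (-0.29 ± 0.06, adjusted p = 0.00023). Gins3, Cdc45 and Mcm10, a factor that helps to activate the helicase, did not pass the test, with log2 fold changes of 0.11, 0.09 and 0.04.

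The clamp and 4 of the 5 clamp loader subunits rose. Rfc3 was at 40.3, 44.6, 45.0 and 46.1 CPM in A/A siChchd10 libraries, against 31.7, 32.0, 29.6 and 30.8 in A/A siControl libraries, which makes 142% of the siControl level (0.51 ± 0.06, adjusted p = 3.23e-08). Pcna, which encodes the clamp itself, was at 346, 362, 360 and 364 CPM with siChchd10 and 314, 271, 286 and 289 CPM with siControl (0.30 ± 0.06, adjusted p = 0.000152). Rfc4, Rfc5 and Rfc2 rose by 0.34, 0.15 and 0.12, all 3 with exons overlapping a gene on the other strand, and Rfc1, the large subunit, lay at 0.06 and did not pass. Rpa2, a subunit of the single-strand binding protein RPA on chromosome 4 at 132768360 to 132778746, had the largest rise of all members. It was at 39.9, 41.0, 42.7 and 42.0 CPM with siChchd10, against 30.1, 26.0, 29.0 and 26.2 with siControl, or 149% of the siControl level (0.57 ± 0.08, adjusted p = 1.42e-06). The lowest siChchd10 library stood clear of the highest siControl library. Rpa1, the large subunit of RPA, rose by 0.31 (adjusted p = 7.1e-06), and Fen1, the nuclease that trims Okazaki fragments, by 0.29 (9.6e-05). Lig1, which seals them, lay at 0.06 (adjusted p = 0.29).

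The polymerases split. Pold1, the catalytic subunit of polymerase delta (chromosome 7 at 44532744 to 44548815), was at 72.7, 76.3, 75.2 and 71.5 CPM in A/A siChchd10 libraries, against 94.0, 91.6, 97.1 and 89.1 in A/A siControl libraries. It was lower in all 4 siChchd10 libraries and reached 79.5% of the siControl level (-0.33 ± 0.04, adjusted p = 7.91e-08), the largest fall among the members. Prim2 and Prim1, the primase subunits, rose by 0.26 and 0.22, and Pola1, the catalytic subunit of polymerase alpha, by 0.18 with overlapping libraries. Pole, the catalytic subunit of polymerase epsilon, and Pola2, the second subunit of polymerase alpha, did not pass (0.05 and -0.00). Of the nucleotide genes, Tyms, which makes thymidylate, was at 72.4, 76.7, 76.6 and 74.4 CPM with siChchd10, against 61.2, 54.5, 53.2 and 56.1 with siControl (0.42 ± 0.07, adjusted p = 7.24e-05). Rrm1, the large subunit of ribonucleotide reductase, rose by 0.15, and its partner Rrm2 lay at 0.09 (adjusted p = 0.227). Uhrf1, which guides maintenance of DNA methylation, rose by 0.17, and Chaf1a, a subunit of the CAF-1 histone chaperone, by 0.12 with overlapping libraries.

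Few members passed the test in S/S cells after the same siRNA. Of the 37 members, 4 fell and 0 rose in the edgeR test (6 had an unadjusted p under 0.05 in either direction, against 37.6% of all genes, 19.6% higher and 18% lower; DESeq2 called 4 lower and 0 higher, against 28.4% of all genes, 13.5% lower and 14.9% higher). The median log2 fold change was -0.01 against 0.00 over all genes, and it ran from -0.05 without S/S siControl replicate 2 to 0.03 without S/S siChchd10 replicate 1. Among all genes 28% were called, 15% as higher and 13% as lower. Cdt1 was at 98.8, 97.8, 99.8 and 111 CPM in S/S siChchd10 libraries, against 115, 118, 117 and 129 in S/S siControl libraries. The groups did not overlap, and Cdt1 fell to 85.2% of the siControl level (-0.23 ± 0.04, adjusted p = 0.000162). Gins3 (-0.19, adjusted p = 0.0359), Pola1 (-0.18, 0.024) and Rfc2 (-0.13, 0.033) fell with overlapping libraries. The number of lower members rested on single libraries: it was 1 without S/S siControl replicate 1 or S/S siChchd10 replicate 1, 2 without S/S siControl replicate 3 or S/S siChchd10 replicate 2, and 8 without S/S siControl replicate 2. It was also 1 without replicate 4 of every group. Cdt1 passed under every alternative tried. The MCM subunits lay between -0.12 (Mcm5) and 0.08 (Mcm3), Pcna at 0.09, Rpa2 at 0.09 and Rfc3 at 0.07, none of them past the threshold.

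The spread between libraries was wider in S/S cells. The median coefficient of variation over the 37 members was 3.5% in A/A siChchd10 and 3.6% in A/A siControl libraries, against 7.2% in S/S siChchd10 and 7.3% in S/S siControl libraries. The members tended to be high or low together in a library: their summed level was 4528 and 4732 CPM in S/S siChchd10 replicates 1 and 2 and 5134 and 5204 CPM in replicates 3 and 4, while S/S siControl replicate 2 was at 4528 CPM and the other S/S siControl libraries at 4970 to 5221. In A/A cells the sum was 4421 to 4580 CPM with siChchd10 and 3790 to 4020 CPM with siControl.

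**Figure D2:**
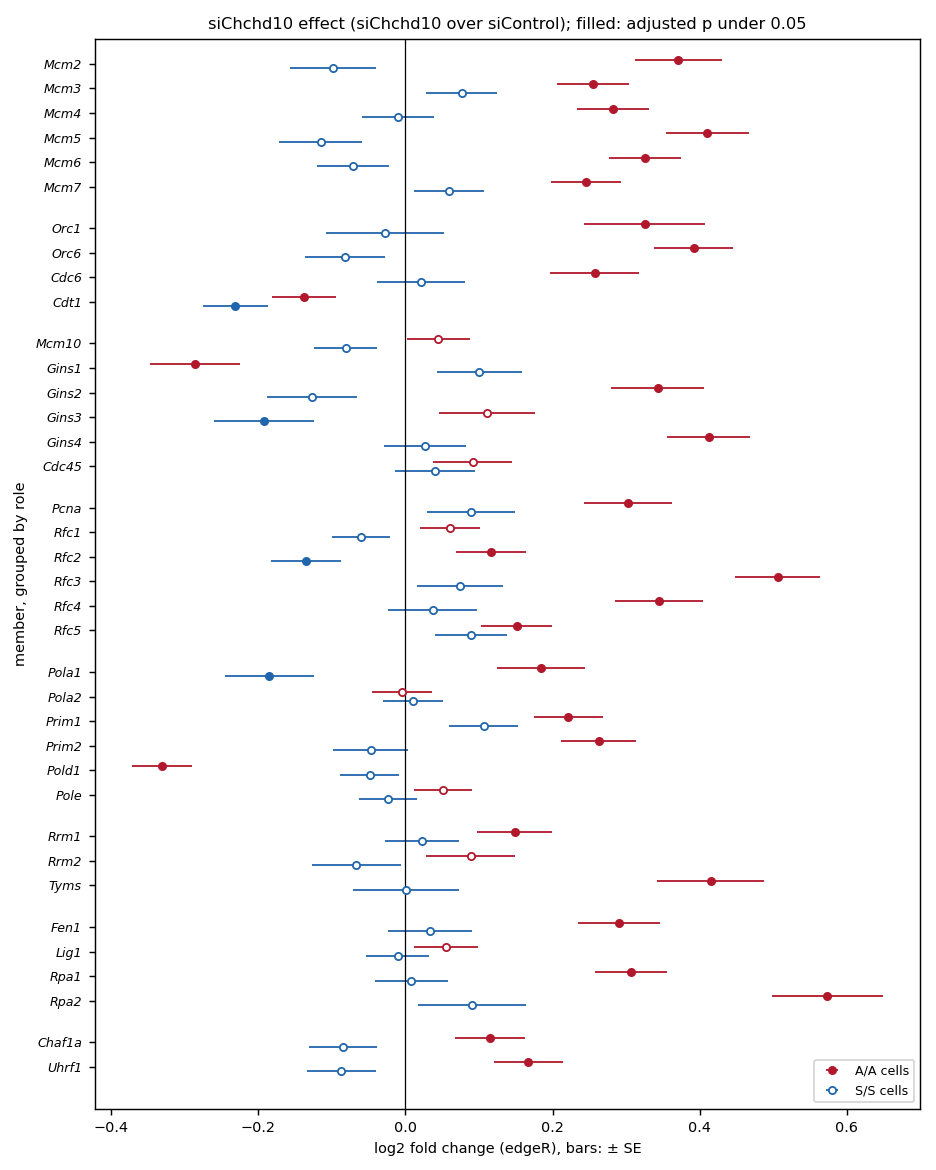
Log2 fold change of siChchd10 over siControl (x axis; bars, ± SE) for the 37 members grouped by role (y axis), in A/A and S/S cells, with filled points at adjusted p under 0.05. In A/A cells 26 members are filled to the right of 0 and 3 to the left, and in S/S cells 4 are filled, all to the left.

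The difference between the siChchd10 effects in A/A and S/S cells was tested directly as an interaction. It was positive and past the threshold for 23 members and negative for 2, with a median of 0.25, against -0.01 over all genes, where 35.6% were called, 16.7% as higher and 18.9% as lower. All 6 MCM subunits were among the 23, led by Mcm5, whose effect was 0.53 ± 0.08 larger in A/A cells (adjusted p = 1.49e-05). For Mcm5 the siChchd10 libraries lay at 232 to 247 CPM in A/A cells, against 172 to 190 with siControl, and in S/S cells at 182 to 223 CPM, against 194 to 236. Rpa2 (0.48 ± 0.11), Orc6 (0.47 ± 0.08), Gins2 (0.47 ± 0.09) and Mcm2 (0.47 ± 0.08) followed. Gins1 (-0.39 ± 0.08, adjusted p = 0.000629) and Pold1 (-0.28 ± 0.06, adjusted p = 0.000282) differed in the other direction: both fell in A/A cells, and in S/S cells Gins1 lay at 0.10 and Pold1 at -0.05, neither past the threshold. Of the 26 members that rose in A/A cells, 22 also passed this test, and Pcna, Rfc5, Prim1 and Rrm1 did not, so a difference between the cell types was not shown for them. Cdt1 fell in both cell types, and its effects were not shown to differ (0.09 ± 0.06, adjusted p = 0.258). Each effect is set against the siControl group of its own cells, so the interaction and the effect in A/A cells share A/A libraries. Without A/A siControl replicate 1, the test called 24 members higher and 2 lower, with a median of 0.27. Leaving out each library in turn, higher members ran from 20 (without S/S siControl replicate 4) to 28 (without S/S siControl replicate 2). All genes called ran from 5712 to 6894. The members' median ran from 0.21 without S/S siChchd10 replicate 1 to 0.32 without S/S siControl replicate 2.

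With siControl, A/A cells held lower levels of most replication genes than S/S cells. Of the 37 members, 27 were lower and 3 higher, with a median log2 fold change of -0.34, against 0.01 over all genes. Across all genes 70.2% were called, 35.6% as higher and 34.7% as lower, so calls were common in both directions. For 25 members every A/A siControl library lay below every S/S siControl library, a separation seen in 31.8% of all genes. Without A/A siControl replicate 1 the count of lower members was 27 and the median -0.35.

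Mcm6 (chromosome 1 at 128331575 to 128359705) differed most. It was at 203, 182, 181 and 181 CPM in A/A siControl libraries, against 402, 356, 372 and 399 in S/S siControl libraries. The A/A level was 48.8% of the S/S level, with a wide gap between the groups (-1.03 ± 0.05, adjusted p = 4.91e-17). Gins2 was at 22.5, 20.8, 21.6 and 20.9 CPM in A/A cells, against 39.0, 33.3, 34.6 and 39.3 in S/S cells (-0.77 ± 0.06, adjusted p = 1.37e-11). Mcm2 (-0.74), Uhrf1 (-0.70), Rpa2 (-0.62), Rfc1 (-0.61) and Chaf1a (-0.60) came next, each with all A/A libraries below all S/S libraries. Within the MCM ring, Mcm3 (-0.51) and Mcm5 (-0.29) were also lower, while Mcm4 (0.01) and Mcm7 (-0.04) did not pass the test. Orc6, Cdc45, Rfc4, Rfc5 and Prim1 did not pass either, and lay between -0.04 and 0.09. Gins3 (0.22, adjusted p = 0.00538), Fen1 (0.18, 0.0054) and Mcm10 (0.10, 0.0432) were higher in A/A cells, with no overlap between libraries. The call of Mcm10 was lost under 10 of the alternatives tried.

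Per kilobase of exon, the MCM genes can be set beside each other. On this scale, A/A siControl cells held 72.3 CPM per kb of Mcm7, 56.7 of Mcm3, 52.6 of Mcm4, 45.1 of Mcm5, 40.0 of Mcm6 and 24.1 of Mcm2. S/S siControl cells held 74.2 CPM per kb of Mcm7, 80.8 of Mcm3, 52.1 of Mcm4, 55.2 of Mcm5, 81.9 of Mcm6 and 40.1 of Mcm2. Mcm6 and Mcm3 headed the order in S/S cells, where they differed from each other by less than their SD, and Mcm7 in A/A cells. The lengths are unions of all annotated exons, so the order between genes depends on which transcripts the cells use.

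With siChchd10 in both cell types, lower and higher members were closer in number. In A/A relative to S/S cells 14 were lower and 11 higher, and the median log2 fold change was -0.06, against -0.01 over all genes. This median rested on single libraries: it was -0.01 without S/S siChchd10 replicate 4 and -0.09 without S/S siChchd10 replicate 1. In this comparison 70.5% of all genes were called, 34.7% as higher and 35.8% as lower. Of the 27 members lower in A/A siControl cells, 14 were lower here too, 11 did not pass, and Mcm5 (0.23) and Gins4 (0.14) were higher. Another 6 that had not passed with siControl were higher, namely Mcm4, Mcm7, Orc6, Rfc4, Rfc5 and Prim1. Mcm10, Gins3 and Fen1 were higher with either siRNA. Mcm6 was at 226, 239, 239 and 232 CPM in A/A siChchd10 libraries, against 336, 352, 383 and 384 in S/S siChchd10 libraries, and its A/A libraries stayed below the S/S libraries (-0.64 ± 0.05, adjusted p = 1.86e-12). Gins1 showed the widest gap, at 53.7% of the S/S level (-0.90 ± 0.06, adjusted p = 7.5e-14), and Pold1 lay at 63% (-0.67 ± 0.04, adjusted p = 8.75e-15). Orc6 was at 75.6 to 82.1 CPM in A/A siChchd10 libraries, against 50.9 to 61.4 CPM in S/S siChchd10 libraries (0.49 ± 0.05, adjusted p = 3.24e-09). Gins3 (0.52) and Fen1 (0.44) were higher as well, with no overlap. The siControl and siChchd10 comparisons of the 2 cell types use different libraries from each other, but each shares its libraries with the siChchd10 comparisons within a cell type. Across the siRNA table, 19 members were lower in A/A siControl cells and rose in A/A cells after siChchd10. Both of these calls use the A/A siControl libraries, so a low value there moves both. Of all genes, 34.7% were called lower in the first comparison and 26.5% higher in the second. Genes called in both were not counted over all genes, nor were the other joint counts given here, so these counts lack an all-gene share. Cdc45 passed the threshold in none of the comparisons in the main fit, but passed in A/A cells after siChchd10 when the A/A groups were fitted alone.

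**Figure D3:**
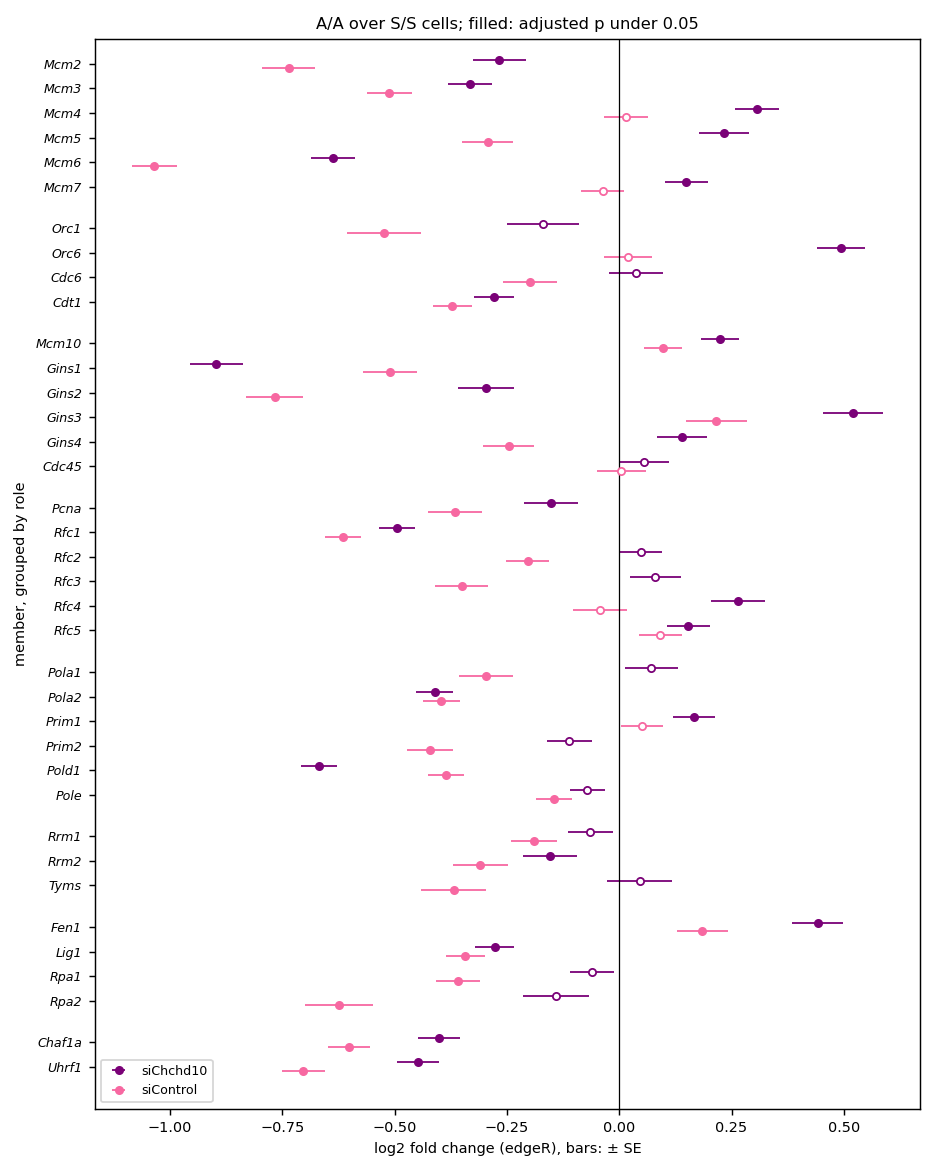
Log2 fold change of A/A over S/S cells (x axis; bars, ± SE) for the 37 members grouped by role (y axis), with siChchd10 and with siControl, filled at adjusted p under 0.05. With siChchd10, 11 members are filled to the right of 0 and 14 to the left, and with siControl 3 to the right and 27 to the left.

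For 12 members (Mcm7, Orc1, Orc6, Gins2, Cdc45, Rfc2, Rfc4, Rfc5, Pole, Fen1, Lig1 and Chaf1a) an exon overlaps a gene on the other strand, so their counts are uncertain. Among the other 25 members, 17 rose and 3 fell in A/A cells after siChchd10, where 26.5% of all genes were called higher and 27.2% lower. In the test of the difference between cell types 15 were higher and 2 lower, against 16.7% and 18.9% of all genes. In A/A against S/S siControl cells 2 were higher and 21 lower, against 35.6% and 34.7% of all genes. Processed copies of Pcna and Tyms are annotated and had few counts beside their parent genes.

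Other genes of the replication pathway were counted from lists drawn up with earlier results of these data known. In A/A cells after siChchd10, 26.5% of all genes were called higher and 27.2% lower. Of 16 further licensing and firing genes, 6 rose and 3 fell in A/A cells after siChchd10, led by Wdhd1 (0.27), Orc2 (0.26) and Orc5 (0.20), with Cdc7 (-0.73), Dbf4 (-0.22) and Orc3 (-0.11) falling. Cdc7 and Dbf4 form the kinase that fires licensed origins. Cdc7 was at 20.5, 18.3, 20.3 and 24.3 CPM in A/A siChchd10 libraries, against 34.9, 33.1, 35.2 and 35.8 in A/A siControl libraries, without overlap (adjusted p = 5.62e-10). It fell in S/S cells too (-0.24, adjusted p = 0.00656), by less than in A/A cells in the test of the difference (-0.49, adjusted p = 0.000205). Of 19 further fork genes tested, 5 rose and 2 fell in A/A cells after siChchd10, the share of rises being close to that of all genes. Among them Pole4, a small subunit of polymerase epsilon, was at 0.55 and Pold3, a subunit of polymerase delta, at -0.14. Of 11 further nucleotide genes, 6 rose and 2 fell, with Shmt1, an enzyme of one-carbon metabolism, at 0.54 and Tk1, thymidine kinase, at -0.24. Of 10 further chromatin genes, 6 rose and 1 fell, with Chaf1b (0.30) and Rbbp4 (0.29), partners of Chaf1a in CAF-1, against Tonsl (-0.35). Of 13 checkpoint genes tested, 6 rose, led by Fanci (0.30), and 2 fell, led by Rad9a (-0.40).

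With siControl, lower genes outnumbered higher genes in A/A cells in each of these 5 lists. Over all genes, 34.7% were called lower and 35.6% higher in this comparison. Lower and higher genes in A/A against S/S siControl cells numbered 10 and 3 of 16 for licensing and firing, 15 and 2 of 19 for the fork, 7 and 2 of 11 for nucleotides, 7 and 2 of 10 for chromatin and 10 and 2 of 13 for the checkpoint. The most different were Dbf4 (-0.74), Pole4 (-0.69), Rrm2b (-0.69), Nasp (-0.70) and Fancd2 (-0.65). In S/S cells after siChchd10, 5 licensing genes fell, among them Cdc7, Topbp1 (-0.17) and Mtbp (-0.13), and so did Pold2 (-0.23) and Rad1 (-0.16). Cmpk1 (0.24) and Shmt1 (0.12) rose while Samhd1 (-0.39), which degrades deoxynucleotides, fell. Over all genes, 13% were called lower and 15% higher after siChchd10 in S/S cells.

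Of the 26 genes of E2F and G1/S control, 7 rose and 7 fell in A/A cells after siChchd10 (median 0.03). These shares were close to those of all genes, 26.5% called higher and 27.2% lower. Ccne1, which encodes the cyclin that drives entry into S phase, was at 23.2, 23.8, 24.2 and 23.1 CPM in A/A siChchd10 libraries, against 18, 16.5, 15.1 and 15.9 in A/A siControl libraries (0.52, adjusted p = 3.99e-07). In S/S cells it went the other way, at 9.90, 12.6, 12.3 and 12.8 CPM with siChchd10, against 16.4, 15.4, 17.7 and 18.8 with siControl (-0.52, adjusted p = 3.59e-06). Neither pair of groups overlapped, and the difference between the effects was 1.04 (adjusted p = 7.62e-09). Ccne2 (0.31) and Lin37 (0.21) also rose in A/A cells, and Rb1 (-0.35), E2f7 (-0.33) and Cdkn1b (-0.28), all of them known to restrain S phase entry, fell. In S/S cells Cdkn1a, an inhibitor of cyclin-dependent kinases, rose to 46.2, 42.8, 42.7 and 44.7 CPM with siChchd10, against 31.2, 29.0, 28.8 and 31.0 with siControl (0.56, adjusted p = 1.44e-09), and 7 genes of the list fell, led by Ccne1, Mybl2 (-0.22) and Rb1 (-0.19). Of all genes, 15% were called higher and 13% lower in S/S cells after siChchd10. Between A/A and S/S siControl cells 8 were higher in this list, led by E2f2 (1.12), Cdkn1a (0.81) and Tfdp1 (0.46). Another 7 were lower, led by Ccnd1 (-1.25), E2f1 (-0.73) and Lin9 (-0.31). Both shares were below those of all genes in this comparison, 35.6% higher and 34.7% lower.

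Of 30 G2/M genes, which mark cells preparing for and passing through mitosis, 2 rose and 12 fell in A/A cells after siChchd10 (median -0.08). Of all genes, 26.5% were called higher and 27.2% lower. Ccnb2, a mitotic cyclin, was at 77.6, 77.8, 78.1 and 80.9 CPM in A/A siChchd10 libraries, against 99.6, 101, 100 and 95.7 in A/A siControl libraries, with no overlap (-0.33, adjusted p = 1.77e-08). Anln (-0.32) and Cenpa (-0.26) fell as well, and Kif20a (0.16) and Mad2l1 (0.13) rose. Between A/A and S/S cells, 20 were lower and 3 higher with siControl, and 21 lower and 2 higher with siChchd10. All genes were called lower in 34.7% and higher in 35.6% with siControl, and in 35.8% and 34.7% with siChchd10. Pttg1 (-0.30) and Anln (-0.18) were the G2/M genes that passed the threshold in S/S cells after siChchd10, both lower. There 13% of all genes were called lower and 15% higher. As a median over genes of each library's log2 CPM minus the table mean, the members lay at 0.02 to 0.05 in A/A siChchd10 and -0.22 to -0.14 in A/A siControl libraries, while the G2/M genes lay at -0.25 to -0.12 and -0.10 to -0.04 in the same groups.

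**Figure D4:**
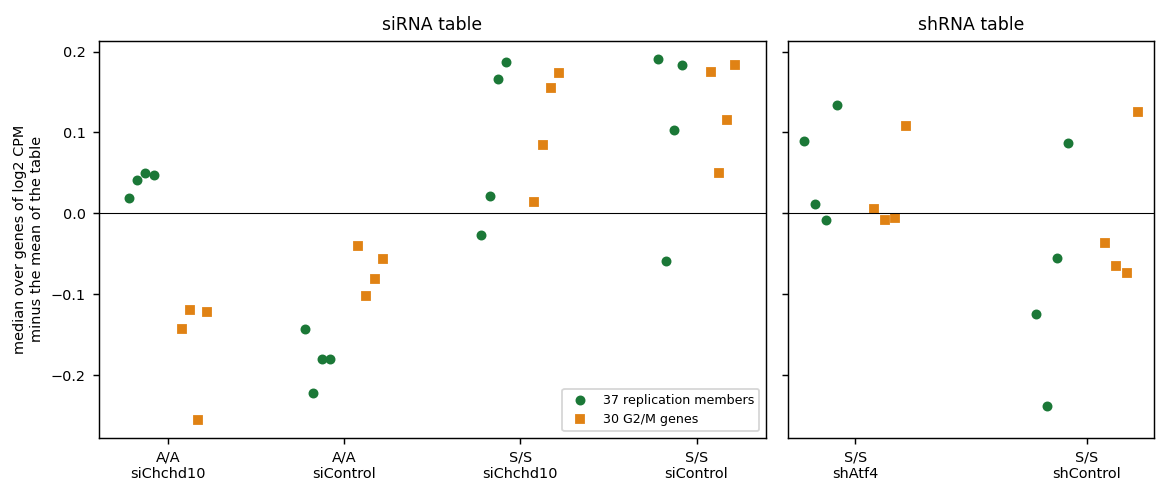
Median over genes of log2 CPM minus the mean of the table (y axis) in each library by group (x axis), for the 37 replication members (circles) and 30 G2/M genes (squares), in the siRNA table (left) and the shRNA table (right). Members of A/A siChchd10 libraries lie above those of A/A siControl libraries while G2/M genes lie below, and the S/S groups overlap for both.

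With shAtf4 in S/S cells, most members had small positive fold changes that did not pass the test. In the edgeR test 0 of 37 passed in either direction, 5 had an unadjusted p under 0.05, all 5 higher, and DESeq2 called 1, Mcm10 higher. Of all genes 10.5% had such an unadjusted p (4.18% higher and 6.36% lower), and DESeq2 called 3.34%, 1.32% as higher and 2.02% as lower. The log2 fold change was positive for 34 members and negative for 3, with a median of 0.11 against -0.00 over all genes. The median was 0.06 without S/S shControl replicate 2 and 0.20 without S/S shControl replicate 4. Of all 14697 genes tested 0.538% were called, 0.15% as higher and 0.388% as lower. Every shAtf4 library lay above every shControl library for 5 members (Mcm6, Mcm7, Mcm10, Gins1 and Rfc3), as for 3.22% of all genes.

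Libraries of the shRNA table with the same replicate number deviated together, most strongly those of replicate 4. Different-numbered libraries among replicates 1 to 3 did so too, so the numbers are not shown to mark pairs. A fit with the number as a block is given as an alternative. With the replicate number as a block, 8 members passed, all higher, while 20.2% of all genes were called, 10.1% as higher and 10.1% as lower. Mcm10 was at 149, 149, 140 and 163 CPM in shAtf4 libraries, against 101, 99.4, 101 and 136 in shControl libraries, in the order of replicates 1 to 4. It was higher with shAtf4 in all 4 pairs, and the groups did not overlap (0.46 ± 0.12, adjusted p = 0.162; with the block 0.47 ± 0.06, adjusted p = 8.21e-05). Mcm2 was at 360, 359, 383 and 476 CPM with shAtf4, against 284, 284, 327 and 475 with shControl, so that the pairs 1 to 3 were higher with shAtf4 and the replicate 4 pair was nearly level (with the block 0.23, adjusted p = 0.0176). Mcm7 (0.22, 0.0106), Mcm6 (0.18, 0.0373), Pcna (0.22, 0.0122), Rfc3 (0.26, 0.0277), Pold1 (0.24, 0.00825) and Fen1 (0.24, 0.0219) were the others that passed with the block, each given with its adjusted p. Pold1 was at 169, 176, 157 and 129 CPM with shAtf4, against 139, 137, 150 and 107 with shControl. Its groups overlapped because both replicate 4 libraries were low, while each pair was higher with shAtf4. Without replicate 4 of both groups 4 members passed, all higher, while 11.7% of all genes were called (5.58% higher and 6.14% lower). Without S/S shControl replicate 4 alone 1 member passed, Mcm10, while 3.56% of all genes were called (1.22% higher and 2.33% lower).

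**Figure D5:**
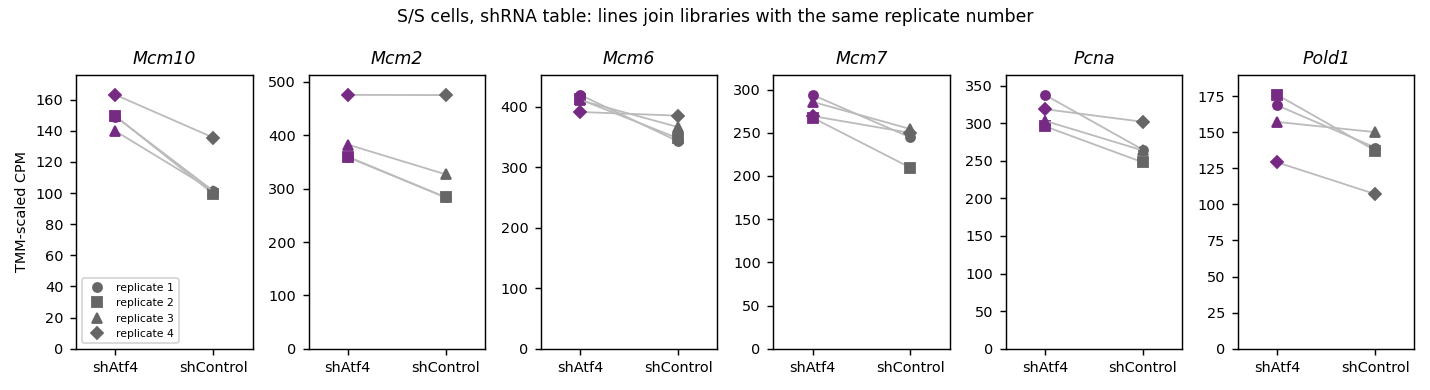
TMM-scaled CPM (y axes, from 0) of 6 members in shAtf4 and shControl libraries of S/S cells (x axis), with lines joining libraries of the same replicate number. In Mcm10 and Pold1 each of the 4 lines is higher at shAtf4, and in Mcm2 the replicate 4 line is nearly level at 476 and 475 CPM.

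Of 125 genes tested in the other pathway lists, 9 had an unadjusted p under 0.05 with shAtf4, all 9 higher, against 10.5% of all genes in either direction and 4.18% higher. None passed the adjusted threshold without the block. With the block, 6 of 26 E2F and G1/S genes rose, led by Ccne1 (0.54), Mybl2 (0.54) and E2f4 (0.36), and Rb1 (-0.31) and Cdkn1b (-0.23) fell. In the same fit 4 of 11 further nucleotide genes rose, led by Samhd1 (0.47), Dctpp1 (0.41) and Nme1 (0.41), and 3 of 30 G2/M genes, namely Plk1 (0.25), Foxm1 (0.21) and Ube2c (0.18), a share close to the 10.1% of all genes called higher. Of the fork genes 2 of 19 rose, Dna2 (0.37) and Pold2 (0.23), and of the chromatin genes 2 of 10, Chaf1b (0.26) and Nasp (0.17). Of the 16 licensing and firing genes none rose and Mtbp (-0.25) fell. The shRNA table was normalised apart from the siRNA table, so levels of the members in its S/S cells are not set against those of the siRNA libraries. The marker sums given for both tables are scaled within each table.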

How the data were processed

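RNA-seq of 24 libraries was analysed. Per the labels' protocols, RNA was extracted with Trizol and libraries were made with a stranded TruSeq total RNA kit for a NovaSeq, although the labels give the molecule as polyA RNA. Unnormalised counts per gene were deposited, in a table of 8 shRNA libraries and a table of 16 siRNA libraries. Per the submitters' processing notes, the authors used build mm10 and DESeq2 1.24.0. What aligner, counter, strand setting and annotation they used is not given in the sources used here. Genes with near-identical copies or overlapping neighbours are therefore uncertain.

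Counts were tested with edgeR 4.0.16 in R 4.3.3: filterByExpr on groups (14697 and 18138 genes kept), TMM, a robust quasi-likelihood fit of each table with 1 term per group, and Benjamini-Hochberg adjustment over all genes kept, with a threshold of 0.05. Levels are TMM-scaled counts per 1e+06 counts, per kilobase of the GENCODE exon union where genes are compared. Errors are SD over libraries or SE of the fold change. Totals of 14067290 to 70932804 counts (shRNA) and 42863650 to 75409451 (siRNA) set the counting precision. The steps were tested on simulated counts. Alternatives were DESeq2 1.42.0, other scalings, no filter, the replicate number as a block, fits to the groups compared alone, and fits without each library or without replicate 4 of every group; scaling by library totals alone was added after the data were seen.

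The labels give groups the same replicate numbers without saying what a number marks. Correlations of deviations from group means were 0.241 to 0.789 for same-numbered shRNA libraries, the highest being that of the replicate 4 pair, and -0.586 to 0.314 for different-numbered ones. Every same-numbered pair was over 0.1, but so were the different-numbered pairs among replicates 1 to 3 (0.121 to 0.314). Only pairs of a replicate 4 library with another number were negative. S/S shControl replicate 3 also correlated more with S/S shAtf4 replicate 2 than with S/S shAtf4 replicate 3. The main fit does not pair these libraries, and the block fit treats the numbers as pairs. The correlations do not establish such pairs for replicates 1 to 3. Same-numbered siRNA libraries had -0.171 to 0.157 and are not treated as pairs.

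The members and gene lists were chosen with earlier results of these data known. All members could be named. Other lists give up to 3 rises and 3 falls per comparison among genes past the threshold, and Atf4 and Chchd10 always. Promoters were printed for the 6 members with an E2F word and the smallest adjusted p between A/A and S/S siControl cells.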

Additional observations from a re-analysis of the deposited data

Results flagged for a closer look

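A library lying far from the other 3 of its group was looked for in the 37 members over 6 groups, 222 sets in all, of which chance flags about 1 in 20. It was found 13 times. In the shRNA table Orc6 was at 76.5 CPM in S/S shAtf4 replicate 4, against 53.1 to 54.4 in the others. Mcm10 was at 136 CPM in S/S shControl replicate 4 (others 99.4 to 101) and Pola2 at 79.6 CPM in S/S shControl replicate 2 (94.2 to 94.6). In A/A siChchd10, replicate 1 was low for Rfc2 (62.5 CPM, others 66.6 to 67.2) and Rfc5 (74.9, others 78.7 to 79.4), and replicate 4 was high for Gins1 (22.1, others 19.9 to 20.2) and low for Pole (109, others 120 to 121). In A/A siControl, replicate 1 was high for Mcm6 (203 CPM, others 181 to 182) and Prim2 (36.0, others 32.3 to 32.7), and it is the library that lay nearest to S/S cells on the first principal component. In S/S siChchd10, replicate 4 was high for Cdt1 (111 CPM, others 97.8 to 99.8). In S/S siControl, replicate 1 was high for Prim1 (55.9 CPM, others 50.5 to 51.4), and replicate 2 was low for Fen1 (57.7, others 68.1 to 69.6) and Uhrf1 (263, others 302 to 310).

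The siChchd10 effect differed between A/A and S/S cells, by the interaction test of edgeR, for 25 of 37 members, each value being the A/A minus the S/S log2 fold change. It was 0.47 for Mcm2, 0.18 for Mcm3, 0.29 for Mcm4, 0.53 for Mcm5, 0.40 for Mcm6 and 0.19 for Mcm7. Among loaders and helicase partners it was 0.35 for Orc1, 0.47 for Orc6, 0.24 for Cdc6, -0.39 for Gins1, 0.47 for Gins2, 0.30 for Gins3 and 0.39 for Gins4. Among clamp loader, polymerase and primase genes it was 0.25 for Rfc2, 0.43 for Rfc3, 0.31 for Rfc4, 0.37 for Pola1, 0.31 for Prim2 and -0.28 for Pold1. For the remaining genes it was 0.41 for Tyms, 0.26 for Fen1, 0.30 for Rpa1, 0.48 for Rpa2, 0.20 for Chaf1a and 0.25 for Uhrf1. Of all genes, 35.6% were called in this test, 16.7% as higher and 18.9% as lower. The calls of Cdc6, Gins3, Mcm3, Mcm7 and Orc1 were each lost under some alternative.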

How the results depend on the processing

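No member called in a comparison changed direction under any alternative tried. Calls kept under every alternative numbered 25 of 29 for siChchd10 in A/A cells (Cdt1, Chaf1a, Pola1 and Rfc2 were lost at least once), 20 of 25 for the difference between cell types (lost: Cdc6, Gins3, Mcm3, Mcm7 and Orc1), 29 of 30 for A/A against S/S siControl cells (lost: Mcm10), 22 of 25 with siChchd10 (lost: Gins4, Pcna and Rrm2) and 1 of 4 for siChchd10 in S/S cells (kept: Cdt1). Members higher with shAtf4 numbered 0, but 8 with the replicate block, 1 by DESeq2, 4 without replicate 4 of every group, and 0 to 1 without each library in turn; all genes called numbered 79, against 2969, 491, 1726 and 13 to 536. For siChchd10 in S/S cells, lower members numbered 4, but 1 without replicate 4 of every group and 1 to 8 without each library, and higher members 0 to 1 without each library. Fits to the groups compared alone also called Cdc45 and Rrm2 in A/A cells after siChchd10, and lost Rfc2 in S/S cells. In the siRNA table the replicate numbers are not shown to pair the libraries, and the block kept every count of members within 1.5 times its main value (4 lower in S/S cells). Scaling by library totals alone, chosen after seeing the data, moved the median of all genes by at most 0.03 (log2). The cause of these shifts was not tested. With 4 libraries a group, the spread between libraries limits which small changes pass the test.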
